A study of Mus musculus with 35 samples.

Results

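Unstimulated CD8 T cells from the brains of aged male mice were compared with those of young male mice, to ask what differs with age in resting brain CD8 T cells. The comparison used 11 of the 35 RNA sequencing libraries of the series, chosen by their sample labels: 6 aged libraries (replicates 7 to 12) and 5 young libraries (replicates 2 to 6). Both groups were C57BL/6 males, a common inbred laboratory strain, with no genetic change or agent named, and both were sorted as CD3e+CD8+ T cells with high CD44 and other surface markers of past contact with antigen. The labels call the animals Young and Aged and give no age in weeks or months. Nor do they tie a replicate to an animal, so the p-values here measure the spread between these libraries, which may be technical.

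CD8 T cells are lymphocytes that recognise peptides on MHC class I molecules through a T cell receptor made of an alpha and a beta chain. Each receptor is assembled from 1 of many variable (V) gene segments per chain, so the segments found in a sample give a coarse view of how varied its T cells are. Some antigen-experienced CD8 T cells stay in tissues such as the brain as tissue-resident memory cells, which keep genes of retention and of recent receptor signals on and genes of circulation low.

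Total counts, in units of M (1000000 counts), ran from 12.2 to 15.6 M in the young libraries and from 10.3 to 24.97 M in the aged libraries (13.9 ± 1.55 M, SD, n = 5, against 18.4 ± 4.91 M, n = 6; exact permutation test, two-sided, p = 0.0693, Benjamini-Hochberg adjusted p = 0.208 over 6 library measures). Genes with at least 1 count numbered 9864 ± 242 in young and 10257 ± 698 in aged libraries (adjusted p = 0.526 by the same exact test). The mitochondrial share counted all genes with an mt- symbol, a wider set than the 13 mitochondrially encoded genes listed further on. These genes took 8.88% ± 0.722 of counts in young and 9.88% ± 0.456 in aged libraries (exact p = 0.026, adjusted p = 0.156). The S numbers in the titles, 1 to 5 for young and 6 to 11 for aged libraries, follow the groups, so their order and age cannot be told apart. The sorted identity held in the deposited TPM values, which are scaled by gene length: Cd3e, a chain of the CD3 complex, lay between 164 and 434 TPM over the 11 libraries, Cd8a between 72.0 and 257 TPM, and Cd4, the coreceptor of helper T cells, between 0 and 24.6 TPM.

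Libraries of 1 group were far from alike. Of 15193 genes with a count in any of the 11 libraries, 6165 (40.6%) had one in every library. Among genes averaging 10 to 100 CPM (counts scaled to 1000000 per library) in a group, 1 library held over 50% of the group's summed level for 52.2% of 4525 genes in young and for 32% of 4714 genes in aged libraries. The same share was 0.352% of 5113 genes in the 5 unstimulated spleen libraries of aged males. Spearman correlations between libraries, across genes, had a median of 0.727 for 2 aged libraries, 0.696 for 2 young libraries and 0.711 for 1 of each, so a library was about as like those of the other group as those of its own. Aged replicate 8 had the lowest total and held 26.8 CPM of Xist, the X inactivation RNA made in female cells. The other 10 libraries had 0 to 10.02 CPM of Xist. Aged replicate 8 also held 166 CPM of the Y-linked gene Ddx3y. Young replicate 3 had 1.43 CPM of Ddx3y against 5.59 to 272 CPM in the others, and 0.17 CPM of Xist. For 58 of the genes, where leaving out 1 library moved the fold by over 1.5 times, the value without it is given. Other genes named below, such as Gzmb, Ifng and Pdcd1, were not checked in this way.

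**Figure D1:**
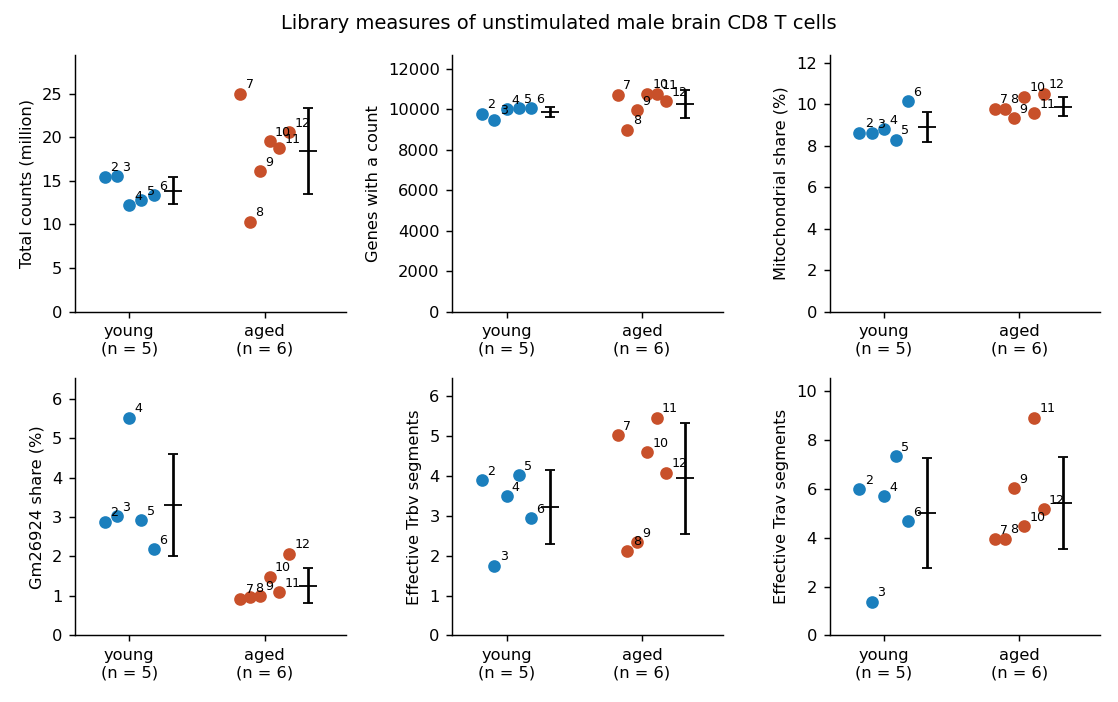
Library measures of the 5 young and 6 aged libraries: total counts in M, genes with a count, mitochondrial share and Gm26924 share in percent, and the effective number of Trbv and Trav segments. Points are libraries labelled by replicate number, and the bars are the mean and SD of each group. The groups overlap in every panel but the Gm26924 share, where the aged libraries lie between 0.926% and 2.07% and the young libraries between 2.18% and 5.52%.

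A few T cell receptor segments dominated every library, and which ones differed between libraries of the same group. The effective number of Trbv segments, the number of equally used segments that would give the same Shannon diversity, was 3.89, 1.75, 3.49, 4.02 and 2.93 in young replicates 2 to 6. In the aged libraries it ranged from 2.13 to 5.47 with a median of 4.34. The groups overlapped, and the means of 3.22 ± 0.921 (SD, n = 5) and 3.94 ± 1.40 (n = 6) did not differ beyond the spread (exact permutation test, two-sided, p = 0.351, adjusted p = 0.526). For the alpha chain the effective numbers of Trav segments were 5.98, 1.38, 5.69, 7.34 and 4.67 in young libraries and 3.94 to 8.91, median 4.82, in aged libraries (means 5.01 ± 2.24 and 5.41 ± 1.89, exact p = 0.753, adjusted p = 0.753). The sign of this alpha chain difference depended on 1 library: aged minus young was 0.399 over all libraries, -0.510 without young replicate 3 and -0.301 without aged replicate 11.

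The leading segment took 30.98% to 80.7% of Trbv counts in young and 31.95% to 73.8% in aged libraries. Trbv5 led in young replicates 2 (30.98%) and 4 (54.6%), Trbv16 in young replicate 3 (80.7%), Trbv3 in young replicate 5 (48.4%) and Trbv13-2 in young replicate 6 (45.9%). Among aged libraries Trbv16 led in replicates 7 (31.95%) and 11 (35.5%), Trbv13-1 in replicate 8 (73.8%), Trbv5 in replicate 9 (63.7%), Trbv29 in replicate 10 (47.1%) and Trbv13-3 in replicate 12 (50.7%). No segment led in more than 2 libraries of a group, and Trbv5 and Trbv16 led in both groups. In young replicate 3, Trav16n held 95.5% of 1236 Trav counts, beside Trbv16 at 80.7% of 3348 Trbv counts. Its Trav and Trbv diversity was the lowest of the 11. Near-identical Trav copies can share reads, as with Trav6d-6 and Trav6-6 in aged replicate 8 (33.1% each), so a clone can be spread over several names.

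**Figure D2:**
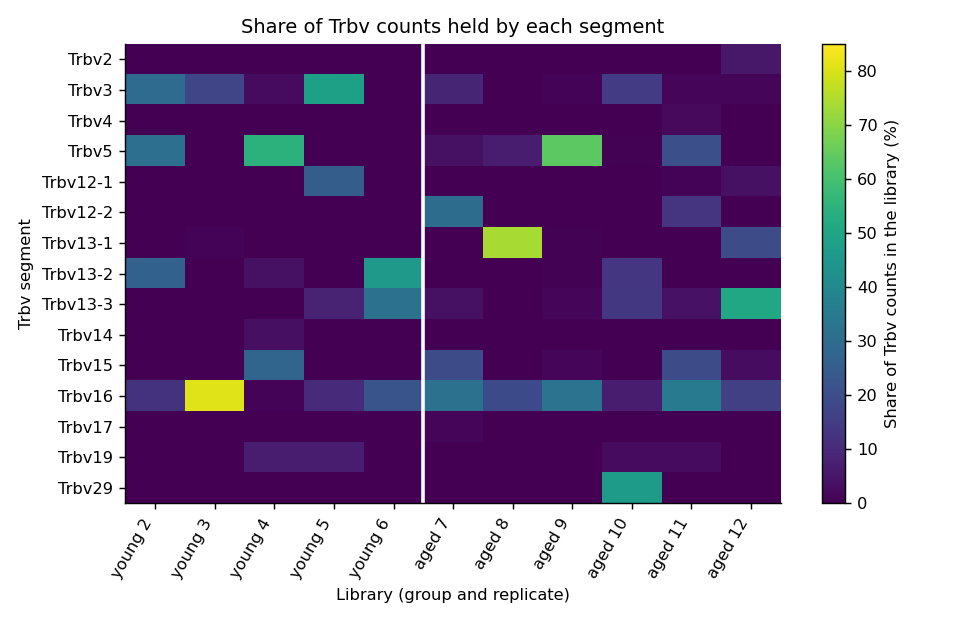
Share of Trbv counts, in percent, held by each segment that reached 1% in a library, for young replicates 2 to 6 (left of the white line) and aged replicates 7 to 12. Each column is 1 library and brighter cells are larger shares, up to 80.7% for Trbv16 in young replicate 3; the brightest row changes from library to library within both groups.

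Brain libraries of aged males had lower effective numbers of segments than spleen libraries of aged males. The 5 unstimulated spleen libraries had effective numbers of 8.73 to 12.7 for Trbv and 11.7 to 48.3 for Trav, and the aged brain libraries lay below all of them (exact permutation test, two-sided, p = 0.00433 for each chain, adjusted p = 0.00433, the smallest the test can give, a comparison chosen after the values were seen). The spleen titles are written in another format, so tissue and preparation cannot be told apart. Spleen libraries also had more genes with a count, 14750 to 15174 against 8979 to 10756 in aged male brain. The part of this in the segment difference was not tested. Unstimulated brain libraries of aged females (n = 5), for a side by side reading, ran from 1.99 to 8.84 for Trbv.

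No gene passed the test between aged and young libraries. Of 38924 genes in the table, 8068 had enough counts to be tested with edgeR's quasi-likelihood test, and 0 (0%) passed an adjusted p of 0.05, the smallest being 0.408. At an unadjusted p under 0.05 there were 177 genes higher in aged cells (2.19% of those tested) and 197 lower (2.44%), together 374 (4.64%). DESeq2 on the same counts called 44 genes higher (0.545%) and 28 lower (0.347%), and limma voom called 1. Among the 44 DESeq2 calls that were higher, 36 lay under 5 CPM in every young library, and in 19 a single library held over 50% of the aged sum. Among the 28 that were lower, 16 had over 50% of the young sum in 1 library. The median log2 fold change, aged minus young, was -0.08, and 47% of the genes tested lay above 0.

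The spread between libraries left most differences unmeasured. The median standard error of a log2 fold change was 1.31, and it was 0.576 for the 1579 genes with a mean over 100 CPM. The 95% interval lay within 1 log2 of 0 for 199 genes (2.47%), each with a mean over 100 CPM, so for the other genes the interval reached a log2 change of 1 in at least 1 direction. A missed threshold therefore does not show that a gene was alike at both ages. In bulk libraries, fewer cells of a type and less RNA per cell cannot be told apart either.

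**Figure D3:**
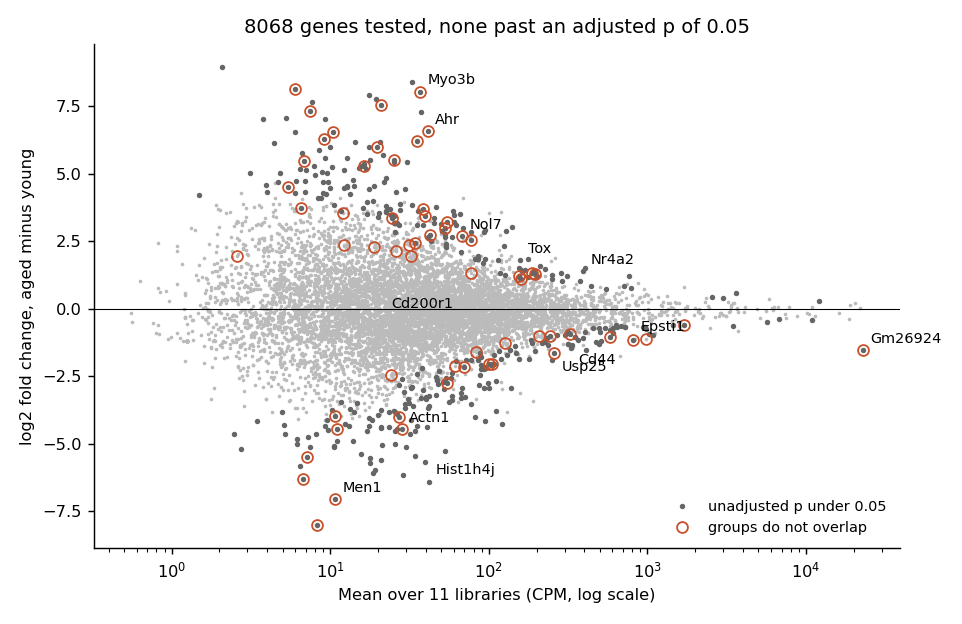
Log2 fold change, aged minus young, against the mean level over the 11 libraries in CPM on a log scale for the 8068 genes tested. Dark points had an unadjusted p under 0.05 (374 genes), and rings mark the 60 genes whose groups did not overlap; changes spread widely below 100 CPM and narrow above it.

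In 60 genes every aged library lay on 1 side of every young library, 35 higher in aged cells (0.434% of those tested) and 25 lower (0.31%). Were the libraries interchangeable, a gene would separate in 1 direction or the other with a probability of 0.00433, the smallest p of the exact permutation test. This probability covers both directions, so it stands beside all 60 genes of the 8068 tested and not beside either share alone. Without aged replicate 8 and young replicate 3 the counts of such genes were 114 higher (1.41%) and 87 lower (1.08%). Fewer libraries separate more readily, and the part of these 2 libraries in the rise was not tested. One of the 60 genes was Nol7, a nucleolar protein gene (ENSMUSG00000063200, chromosome 13, 43398390 to 43407097, GRCm38). Its level was 20.1, 22.6, 17.3, 11.01 and 13.8 CPM in young replicates 2 to 6 and 75.5 to 138 CPM, median 106, in aged libraries. The aged libraries lay well above the young range, and the log2 fold change was 2.70 ± 0.77 (SE; 95% interval 1.09 to 4.30, edgeR adjusted p = 0.67). Iars, the isoleucyl-tRNA synthetase gene, stood at 9.15, 0.843, 21.3, 15.2 and 8.56 CPM in young and at 50.5 to 149 CPM, median 76.1, in aged libraries. All aged libraries were above the young ones (log2 fold change 2.99 ± 0.98, edgeR adjusted p = 0.841).

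Other genes higher in every aged library had different known roles, and none of those named here passed an adjusted p of 0.05. Tra2b, a splicing regulator, was at 96.3, 140, 45.8, 77.4 and 155 CPM in young and 174 to 314 CPM, median 270, in aged libraries (log2 fold change 1.33 ± 0.48, edgeR adjusted p = 0.917). Kdm5b, a histone H3 lysine demethylase, ranged from 0.595 to 46.6 CPM in young and from 57.5 to 211 CPM in aged libraries (2.55 ± 1.01). Rcc2 (0.429 to 16.7 against 37.6 to 113 CPM, log2 fold change 2.74 ± 1.06), Arid4b, a chromatin-binding protein gene (30.3 to 158 against 178 to 255 CPM, 1.11 ± 0.52) and Cep350, a centrosome protein gene (24.5 to 163 against 171 to 248 CPM, 1.22 ± 0.55), were separated in the same direction. Pik3ca, a catalytic subunit of the lipid kinase that acts downstream of the T cell receptor, was at 0.674 to 15.4 CPM in young and 26.8 to 212 CPM in aged libraries. Its highest value was in aged replicate 8, and its log2 fold change was 3.43 ± 1.22 with that library and 2.61 without it, or 4.04 without young replicate 5.

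The genes lower in every aged library likewise had different known roles. Epsti1, an interferon-stimulated gene (ENSMUSG00000022014, chromosome 14, 77904239 to 78002657), was at 1337, 1308, 1115, 1125 and 936 CPM in young and 272 to 747 CPM, median 531, in aged libraries. The young values lay close together and above all aged ones (log2 fold change -1.15 ± 0.28, 95% interval -1.73 to -0.56, edgeR adjusted p = 0.444). Usp25, a deubiquitinase gene, was at 363, 876, 324, 243 and 243 CPM in young and 59.4 to 215 CPM, median 133, in aged libraries. Young replicate 3 was the high value, and the log2 fold change was -1.62 ± 0.47 with it and -1.14 without it. Arhgef1, a guanine nucleotide exchange factor gene of lymphocytes, ranged from 287 to 420 CPM in young and from 38.2 to 272 CPM in aged libraries (-1.02 ± 0.45). Ucp2, a mitochondrial carrier, ranged from 303 to 593 against 115 to 288 CPM (-0.93 ± 0.37).

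Other genes lower in every aged library had a wide spread. Ass1, which makes argininosuccinate for arginine synthesis, ranged from 114 to 248 CPM in young and from 1.76 to 86.9 CPM in aged libraries (log2 fold change -2.06 ± 0.81). Psma7, a subunit of the proteasome core, ranged from 76.7 to 201 against 0.878 to 74.9 CPM (-1.59 ± 0.82). Setd5 (158 to 245 against 1.65 to 127 CPM, -1.27 ± 0.70) and the lymphocyte GTPase gene Gimap3 (224 to 382 against 3.29 to 195 CPM, -1.001 ± 0.62) had their lowest value in aged replicate 8. Psma7 and Ass1 were lowest there too, as were Epsti1, Usp25 and Arhgef1 above, but not Ucp2. Without that library the log2 fold changes of Psma7, Setd5, Gimap3 and Ass1 were -1.36, -1.04, -0.77 and -1.83. Those of Epsti1, Usp25 and Arhgef1 were -1.04, -1.51 and -0.84. For Psma7, Setd5 and Gimap3 the 95% interval of the fold change over all libraries held 0.

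**Figure D4:**
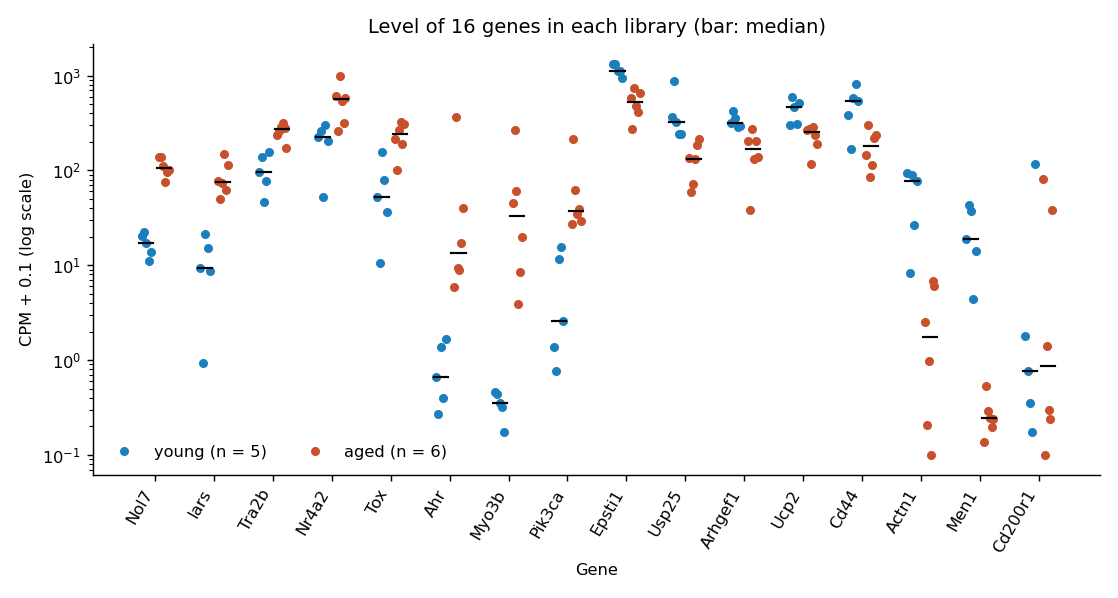
Level of 16 genes in each library, as CPM plus 0.1 on a log scale; blue points are the 5 young and red points the 6 aged libraries, and bars are medians. Nol7, Iars, Tra2b, Ahr, Myo3b and Pik3ca are higher and Epsti1, Usp25, Arhgef1, Ucp2, Actn1 and Men1 lower in every aged library; Nr4a2, Tox, Cd44 and Cd200r1 overlap between the groups.

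Many of the genes with the smallest p-values were near absent in 1 group, so their folds rest on levels near 0 and the sizes are uncertain. Myo3b, an unconventional myosin gene (ENSMUSG00000042064, chromosome 2, 70039126 to 70429198), was at 0.357, 0.337, 0.254, 0.222 and 0.0744 CPM in young and 3.80 to 265 CPM, median 32.7, in aged libraries. Every aged library exceeded the young ones, and aged replicate 8 was far above the rest. The log2 fold change was 8.04 ± 1.59 (95% interval 4.72 to 11.4, edgeR adjusted p = 0.408), and 6.73 without aged replicate 8. Fgd6, Ric8b, Nap1l3, Cdadc1, Rttn and Erlin2 followed, with log2 fold changes from 6.22 (Rttn, a centriole protein gene) to 8.39 (Ric8b, a chaperone of G protein subunits). In young libraries these 6 genes reached at most 2.22 CPM. These 6 genes and Myo3b had enough counts to be tested only through the aged libraries. Of these 6, Nap1l3 and Rttn did not overlap between the groups, and 4 had their highest aged value in replicate 8 (Fgd6, Ric8b, Cdadc1 and Erlin2, 141 to 289 CPM). Without replicate 8 the log2 fold change of Fgd6 was 5.77, and Ric8b, Cdadc1 and Erlin2 had too few counts to be tested. Most other aged libraries had the same effect when left out. Ric8b kept a value only without aged replicate 11, Cdadc1 only without 7, Erlin2 only without 10 and Nap1l3 only without 8. The aged means without replicate 8 were 14.1 CPM for Ric8b, 10.5 CPM for Cdadc1 and 12.2 CPM for Erlin2. The log2 fold change of Rttn was 4.65 without aged replicate 9 and 6.92 without young replicate 2.

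Men1, the gene of menin, a scaffold of histone methyltransferase complexes (ENSMUSG00000024947, chromosome 19, 6334979 to 6340891), showed the reverse pattern. It was at 18.8, 42.9, 37.1, 4.36 and 13.99 CPM in young and 0.0374 to 0.439 CPM, median 0.144, in aged libraries, without overlap (log2 fold change -7.05 ± 1.64, edgeR adjusted p = 0.444). Men1 had enough counts to be tested only through the young libraries, and its fold rests on aged levels near 0. Mis12, a kinetochore gene, was at 12.4 to 35.3 CPM in young and 0.0939 to 2.42 CPM in aged libraries (-4.46 ± 1.48). Ndnl2, Unc119b, Tcf4 and Nkrf had log2 fold changes from -6.15 (Tcf4, an E protein transcription factor) to -4.02 (Unc119b). Without young replicate 3 the log2 fold changes were -2.95 for Unc119b, -4.55 for Ndnl2 and -5.51 for Tcf4, which was at -7.02 without aged replicate 12. Each of these 4 overlapped between the groups, as at least 1 young library was also under 7 CPM. Hist1h3i and Hist1h4j, histone genes with near-identical copies whose single values are uncertain, were at -4.25 ± 1.002 and -6.40 ± 1.56. Over all 58 clustered histone genes tested, a list added after values were seen, 18 lay above 0 and the median was -0.46, beside 47% above 0 and -0.08 over all genes tested. Of the 58, 2 were lower at an unadjusted p under 0.05, beside 2.44% of all genes.

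One abundant RNA separated the groups. Gm26924 (ENSMUSG00000098178, chromosome 17, 39846958 to 39848788, annotated as a long intergenic RNA), named after its values were seen, lies at a locus known to overlap ribosomal RNA sequence. It was at 31871, 39567, 57088, 27629 and 21615 CPM in young and 8656 to 20004 CPM, median 10539, in aged libraries. No library overlapped, and the log2 fold change was -1.54 ± 0.27 (95% interval -2.12 to -0.95, edgeR adjusted p = 0.408). It took 3.31% ± 1.28 (SD, n = 5) of counts in young and 1.26% ± 0.446 (n = 6) in aged libraries, 1.06% to 2.33% in unstimulated brain libraries of aged females and 2.59% to 5.76% in unstimulated spleen. Gm26924 passed an adjusted p of 0.05 in limma voom (0.00248), with at least 10 counts in every library (0.0486), in the fit of all 35 libraries (0.0411) and without aged replicate 12 (0.00589). How much ribosomal RNA each library held was not measured, and its part in this result was not tested.

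The lists of T cell genes below were read by their counts at an unadjusted p under 0.05, beside 2.19% higher and 2.44% lower over all genes tested, and by the share above 0, beside 47% over all genes tested. No member of any of the 24 lists passed an adjusted p of 0.05. The lists overlap in genes and were chosen with earlier results of these data known, so their counts are a description.

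Of 20 genes of CD8 T cell identity, 7 lay above 0, the median log2 fold change was -0.12, and 1 had an unadjusted p under 0.05. That gene was Cd44, the hyaluronan receptor used in the sort (ENSMUSG00000005087, chromosome 2, 102811141 to 102901665). It was at 381, 168, 584, 820 and 544 CPM in young and 86.0 to 303 CPM, median 182, in aged libraries. Of the aged libraries 3 lay below the lowest young library, replicate 3, and none lay above the second lowest (log2 fold change -1.44 ± 0.44, 95% interval -2.36 to -0.52, edgeR adjusted p = 0.804). Cd8a, at 300 to 792 CPM in young and 449 to 1024 CPM in aged libraries, had an interval of -0.09 to 1.26.

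Immediate early genes, which T cells switch on within minutes to hours of a receptor signal, were mixed: 13 of 24 tested lay above 0 (median 0.06), 2 were higher and 1 lower at an unadjusted p under 0.05. Nr4a2, an orphan nuclear receptor gene (ENSMUSG00000026826, chromosome 2, 57106830 to 57124003), was at 224, 262, 51.8, 299 and 206 CPM in young and 260 to 987 CPM, median 561, in aged libraries. Replicate 8 was the only aged library within the young range, and the log2 fold change was 1.40 ± 0.45 (interval 0.47 to 2.33, edgeR adjusted p = 0.841). Fosl2, an AP-1 subunit, stood at 47.7 to 313 CPM in young and 275 to 659 CPM in aged libraries (1.21 ± 0.44), and was named after its values were seen. Zfp36, which speeds the decay of cytokine mRNA, was the 1 lower, at 201, 243, 365, 163 and 127 CPM in young and 21.9 to 166 CPM, median 72.9, in aged libraries (-1.38 ± 0.58). NF-kB and NFAT target genes held none at that level among 17 (8 above 0, median -0.15). Their most abundant member, Tnfaip3, an inhibitor of NF-kB signalling, had an interval of -0.26 to 0.64.

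Killing genes held 1 of 17 higher and none lower (7 above 0, median -0.01). Serpinb9, which blocks granzyme B inside the killer cell, was at 101, 43.8, 63.5, 336 and 35.9 CPM in young and 135 to 495 CPM, median 325, in aged libraries. Young replicate 5 alone reached the aged range (log2 fold change 1.46 ± 0.59, edgeR adjusted p = 0.994), and the log2 fold change was 2.38 without it. Gzmb, the gene of granzyme B itself, spread from 9.65 to 687 CPM in young and from 78.7 to 751 CPM in aged libraries, with an interval of -1.50 to 1.81. Ifng, the gene of interferon gamma, spread from 1.10 to 233 CPM in young and from 17.1 to 323 CPM in aged libraries (interval -0.90 to 3.68). Of 11 cytokine and chemokine genes tested 4 lay above 0 and none had an unadjusted p under 0.05, while Ccl5, a chemokine gene of memory CD8 T cells, was at 446 to 518 CPM in young and 418 to 674 CPM in aged libraries.

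Inhibitory receptor and exhaustion genes lay below 0 in 11 of 17 (median -0.48), with Tox as the 1 member at an unadjusted p under 0.05. Tox, a transcription factor of T cells under lasting stimulation (ENSMUSG00000041272, chromosome 4, 6686353 to 6991557), was at 52.5, 10.4, 156, 79.7 and 36.02 CPM in young and 101 to 326 CPM, median 240, in aged libraries. Aged replicate 8 alone lay within the young range, and the log2 fold change was 1.81 ± 0.63 (interval 0.48 to 3.13, edgeR adjusted p = 0.916), or 2.39 without young replicate 4. Pdcd1, the gene of the inhibitory receptor PD-1, ranged from 26.02 to 132 CPM in young and from 42.6 to 269 CPM in aged libraries (interval -0.72 to 1.95). Of 16 genes reported in aged CD8 T cells, 10 lay above 0 (median 0.09), and Tox and Nr4a2 were the 2 at an unadjusted p under 0.05. Gzmk, a granzyme gene of that list, ranged from 25.03 to 449 CPM in young and from 53.9 to 185 CPM in aged libraries.

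CD200 is a surface protein that restrains immune cells through its receptor, CD200R1, and through the adaptors Dok1 and Dok2. Cd200r1 was at 1.72, 0.674, 0.254, 0.0739 and 115 CPM in young replicates 2 to 6. In aged libraries it was at 80.5 CPM in replicate 7, 38.6 CPM in replicate 12 and 0 to 1.32 CPM in the other 4. In both groups the level came from 1 or 2 libraries, and the log2 fold change was -0.23 ± 1.88 (interval -4.15 to 3.68, edgeR adjusted p = 0.994), or 4.85 without young replicate 6. Cd200 had 0 counts in all 11 libraries. Of 6 CD200 pathway genes tested, 1 lay above 0 and none had an unadjusted p under 0.05.

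Tissue residency genes lay above 0 in 12 of 18 (median 0.26), with Ahr as the 1 member at an unadjusted p under 0.05. Ahr, a ligand-activated transcription factor that helps keep T cells in barrier tissues (ENSMUSG00000019256, chromosome 12, 35497974 to 35535038), was at 0.572, 0.169, 1.27, 0.296 and 1.56 CPM in young and 5.87 to 367 CPM, median 13.2, in aged libraries. All aged libraries lay above all young ones, with replicate 8 far above the rest. The log2 fold change was 6.58 ± 1.57 (edgeR adjusted p = 0.444), and 4.37 without aged replicate 8. Its size rests on young levels near 0 and is uncertain. Cd69, which holds cells in tissue, spanned 23.7 to 946 CPM in young and 47.1 to 907 CPM in aged libraries. Cxcr6, a chemokine receptor gene of resident cells, spanned 74.6 to 828.7 CPM in young and 44.9 to 486 CPM in aged libraries, and Itgae, the alpha E integrin gene, 0.298 to 190 and 7.75 to 251 CPM.

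Genes of naive and central memory cells lay below 0 in 10 of 15 (median -0.66), and 3 were lower at an unadjusted p under 0.05 (Actn1, Slamf6 and Tcf7). Actn1, the gene of the actin crosslinker alpha-actinin (ENSMUSG00000015143, chromosome 12, 80167547 to 80260371), was at 93.3, 8.26, 88.7, 26.8 and 77.9 CPM in young and 0 to 6.79 CPM, median 1.66, in aged libraries. The groups did not overlap, though young replicate 3 was close to the highest aged library (log2 fold change -4.45 ± 1.46, edgeR adjusted p = 0.841). Slamf6 and Tcf7 were named after their values were seen. Slamf6, a lymphocyte adhesion receptor gene, was at 5.15, 0, 19.6, 32.8 and 12.2 CPM in young and 0 to 1.19 CPM in aged libraries (-5.83 ± 2.09). Tcf7, the gene of the memory factor TCF-1, was at 147, 717, 151, 106 and 257 CPM in young and 55.3 to 178 CPM in aged libraries (-1.28 ± 0.56), overlapping, and its log2 fold change was -0.53 without young replicate 3. Circulation and egress genes, which share Ccr7, S1pr1, Klf2 and Klf3 among others with this list, lay below 0 in 9 of 13 and had none at that level.

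Among chemokine receptor, integrin and adhesion genes 7 of 14 lay above 0, and 1 was higher and 1 lower at an unadjusted p under 0.05. Itga4, the alpha 4 integrin chain that lymphocytes use to enter the brain, ranged from 270 to 661 CPM in young and from 502 to 883 CPM in aged libraries (log2 fold change 0.71 ± 0.32). Itgal, the alpha chain of LFA-1, ranged from 292 to 926 CPM in young and from 315 to 510 CPM in aged libraries (-0.70 ± 0.32). Both overlapped. Among 18 effector and memory transcription factors 9 lay above 0, and Irf8 was the 1 lower at an unadjusted p under 0.05. It was at 87.0, 34.9, 159, 15.5 and 14.7 CPM in young and 0.188 to 23.2 CPM, median 1.07, in aged libraries, with aged replicate 7 alone inside the young range (-3.48 ± 1.39). Its log2 fold change was -4.96 without aged replicate 7 and -2.77 without young replicate 4. Irf8 is also made by myeloid and B cells, whose marker levels are given further on.

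Type I interferon response genes were split: 14 of 22 lay above 0 (median 0.26), and 1 was at an unadjusted p under 0.05. This was Oasl2 (log2 fold change 4.32 ± 2.01, or 5.45 without young replicate 5), at 0 to 1.11 CPM in young and 0 to 18.4 CPM in aged libraries, named after its values were seen. Epsti1, above, is stimulated by interferon, was not on this list and had a negative estimate.

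Heat shock genes lay above 0 in 10 of 15 (median 0.40) with 2 higher at an unadjusted p under 0.05. Hsph1, a co-chaperone gene, was at 41.2, 118, 219, 117 and 220 CPM in young and 196 to 492 CPM, median 315, in aged libraries (log2 fold change 1.25 ± 0.47). Hspa8, the constitutive chaperone, was at 7674 to 13699 CPM in young and 11684 to 14763 CPM in aged libraries (0.30 ± 0.14), and was named after its values were seen. Stress and senescence genes lay above 0 in 12 of 15 with a median of 0.87, and their 1 member at an unadjusted p under 0.05 was Hmox1, at up to 1.95 CPM in young and up to 76.9 CPM in aged libraries (5.02 ± 2.19, or 6.67 without young replicate 4). Cdkn2a, a marker of senescence, had 0 counts in all 11 libraries. Of 17 cell cycle genes 12 lay above 0 and 1 was higher at that level, Pcna, the replication clamp, at 162, 10.95, 119, 106 and 380 CPM in young and 257 to 610 CPM, median 335, in aged libraries (1.33 ± 0.58, or 2.00 without young replicate 6). Mki67, the proliferation marker, had a negative estimate (50.03 to 856 against 1.87 to 202 CPM, interval -3.47 to 0.0052).

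The remaining lists held few or none. Glycolysis genes had 1 higher of 15, Pgam1 at 0 to 1.56 CPM in young and 0.337 to 43.6 CPM in aged libraries (log2 fold change 5.16 ± 2.22). Young replicate 6 was the 1 young library with a count, and without it the fitted Pgam1 value was 10.57, which rests on a group at 0 and is no measure of size. None had an unadjusted p under 0.05 among 18 genes of MHC class I presentation (12 above 0), 19 cytokine receptors (9 above 0), 15 genes of the Bcl2 family (7 above 0), 13 mitochondrially encoded genes (6 above 0), 10 JAK-STAT feedback inhibitors and Pim kinases (4 above 0) and 8 Gimap genes (2 above 0). The 13 mitochondrially encoded genes, all protein-coding, summed to a median of 58872 CPM in young and 54583 CPM in aged libraries, with overlap. Among the members of these lists were genes measured closely enough to bound a change. H2-K1, an MHC class I gene, was at 3339 to 4898 CPM in young and 3435 to 4930 CPM in aged libraries (interval -0.28 to 0.40). Ifngr1, a chain of the interferon gamma receptor, had an interval of -0.74 to 0.37.

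**Figure D5:**
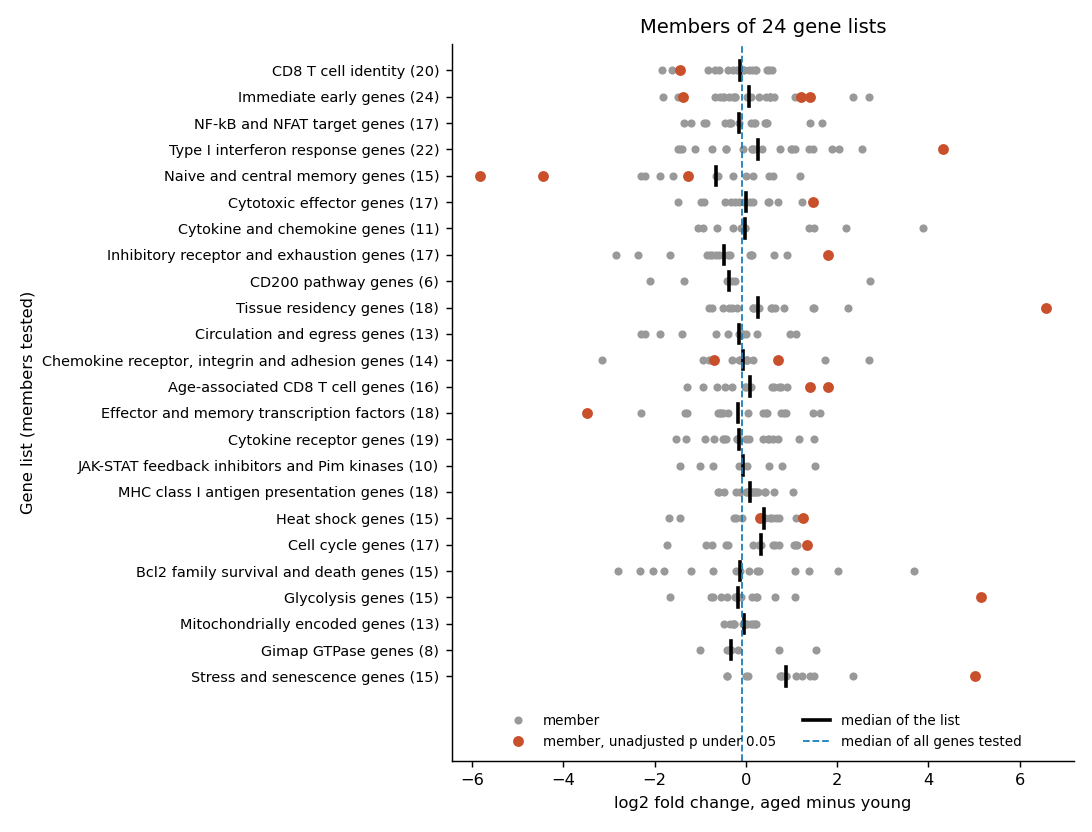
Log2 fold change, aged minus young, of each tested member (grey points) of 24 gene lists, with the list's median (black bar) and the number tested in brackets; red points had an unadjusted p under 0.05 and the dashed line is the median of all genes tested, -0.08. Most lists straddle 0; naive and central memory genes have a median of -0.66 and stress and senescence genes of 0.87.

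RNA of genes listed as markers of other cell types was present in some libraries, and the summed levels of each marker list overlapped between the groups. Some of these markers, such as Cx3cr1, Itgam, Ccr2, Il2ra and Ctla4, are also on the T cell lists above. Their sums therefore do not by themselves show that other cells were present. Of 35 marker genes tested none passed an adjusted p of 0.05 with edgeR; at an unadjusted p under 0.05, 1 (2.86%) was higher and 3 (8.57%) were lower, beside 2.19% and 2.44% of all genes tested. Summed NK cell markers were at 71.2 to 201 CPM in young and 3.77 to 77.3 CPM in aged libraries, with Klra4 and Klra8 at 0 in all 11. Microglia markers summed to 177 to 529 CPM in young and 9.35 to 444 CPM in aged libraries (2 of 7 tested above 0), with Aif1 at 0 in all 11. B cell markers summed to 10.4 to 159 CPM in young and 0.61 to 43.7 CPM in aged libraries, with Igj at 0 throughout. Ighm, the heavy chain of IgM, made up most of the young sums (159, 10.03, 75.7, 48.8 and 122 CPM against 0.299 to 20.3 CPM; log2 fold change -3.67 ± 1.26, or -4.50 without aged replicate 11, edgeR adjusted p = 0.869), while Igkc led in aged replicate 7. Endothelial and pericyte markers summed to 23.4 to 183 against 0.682 to 38.1 CPM, with Cldn5 at 0 throughout, and CD4 and regulatory T cell markers to 4.99 to 444 against 13.6 to 164 CPM. Antigen presenting cell markers summed to 42.2 to 572 against 31.2 to 302 CPM, border macrophage and monocyte markers to 171 to 370 against 32.9 to 765 CPM (Lyve1, Pf4 and Ms4a7 at 0), and gamma delta T cell markers to 27.3 to 230 against 99.9 to 502 CPM.

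Neutrophil and red blood cell markers stood out in young replicate 4, at 810 and 631 CPM, against at most 7.07 and 0.768 CPM in the aged libraries. Ly6g, a defining neutrophil gene, was at 0 in all 11. Choroid plexus and ependymal markers summed to 2.93 to 339 CPM in young and 3.08 to 1374 CPM in aged libraries, mostly Ttr and Enpp2. Astrocyte markers reached 790 CPM in aged replicate 9, nearly all from Apoe, which macrophages also make, and 246 CPM in young libraries. The 1 marker gene higher at an unadjusted p under 0.05 was Apoe, and the 3 lower were Ighm, Itgax and Ikzf2, named after their values were seen. Neuron markers summed to 0.59 to 219 against 7.68 to 47.4 CPM and oligodendrocyte markers to 61.0 to 195 against 47.1 to 256 CPM. With a covariate of microglia markers the log2 fold change was -4.47 for Irf8, -4.43 for Actn1, -7.04 for Slamf6 and -1.41 for Tcf7, none past an adjusted p of 0.05 with edgeR. That fit gave 0 calls and 393 genes at an unadjusted p under 0.05. The part of the other cell types in these values was not tested.

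Unstimulated brain cells of aged females (n = 5), with no young female group beside them, gave a further reading of the aged levels; they were scaled together with the male libraries and not tested. Their median was 144 CPM for Cd44 (123 to 208), 390 CPM for Nr4a2 (214 to 464) and 105 CPM for Tox (15.96 to 192). It was 52.3 CPM for Myo3b (9.90 to 104) and 18.6 CPM for Ahr (3.22 to 61.1), 2 genes at or under 1.56 CPM in every young male library. Nol7 was at a median of 10.05 CPM (0 to 82.5), Epsti1 at 822 CPM (429 to 1015) and Men1 at 1.86 CPM (0 to 5.47). The female values of Cd44, Nr4a2, Tox, Nol7, Epsti1 and Men1 all reached into the range of young males. The young male ranges keep the scaling of the 11 male libraries alone, so close cases such as Epsti1 and Men1 are approximate.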

How the data were processed

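RNA of sorted mouse brain CD8 T cells was read in 11 libraries, 6 aged and 5 young, grouped by the sample labels. Per the submitters' processing notes, reads were aligned with Bowtie2 2.2.0 and quantified with RSEM 1.2.12 on mm10; the sources used here give neither annotation release nor strand, so antisense and overlapping genes, and near-identical copies, are uncertain. The authors deposited a table of whole-number counts for 38924 genes, used in all tests. Per the file headers, the authors' expected counts of each library are RSEM estimates, from which the table differed by at most 0.5. The authors' TPM, per the file headers, adjust each library for gene length and served for levels between genes. Symbols came with the files (359 entries share one), and positions are from GENCODE M21 on GRCm38 (96.6% of identifiers found).

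Counts were filtered with filterByExpr (minimum count 10), scaled by TMM and tested with edgeR 4.0.16 in R 4.3.3 (quasi-likelihood, robust, two-sided, the 11 libraries alone, Benjamini-Hochberg threshold 0.05); CPM use TMM-scaled totals (aged females scaled with the brain libraries), except in spleen, where totals were unscaled. DESeq2 1.42.0, limma 3.58.1 (voom), other filters and scalings, covariates and each library left out were alternatives. Library measures had exact permutation tests in scipy 1.17.1. On simulated counts with the measured spread (7717 genes), 18.6% of genes changed by a log2 fold change of 3 and 0% of those changed by 1 were called, and 0 unchanged ones. It was 1 run, with 97 genes changed by 3 and 99 by 1, at the spread edgeR fitted to these libraries. Genes whose level came mostly from 1 library need not be reproduced by it. Libraries of a group differed by more than counting noise in every pair (chi-square at least 304 per degree of freedom).

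The comparison, the gene lists and the rule for named genes were chosen with earlier results of these data known. Named genes are Cd200r1; per list and direction the member with the smallest unadjusted p under 0.05 and a mean of at least 5 CPM, or the most abundant member of a list with none; the 8 smallest p per direction with a mean of at least 10 CPM; the genes of that kind whose groups do not overlap; and the 4 strongest DESeq2 calls per direction. The ranked parts skip predicted genes, pseudogenes, small RNA, ribosomal protein genes and receptor or immunoglobulin segments. Members named for context were picked for their known role; results on a few listed genes are not reported here.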

Additional observations from a re-analysis of the deposited data

Results flagged for a closer look

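Within-group gaps were examined in 128 sets of values, and in 24 the highest library stood apart from its group by Dixon's 95% criterion. That criterion's chance rate of about 1 in 20 holds for normally distributed values. Many sets here were skewed CPM or genes picked for large differences, so the 24 cannot be read against that rate. Of the 24, 8 were in aged replicate 8 and 3 in young replicate 3.

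In aged replicate 8 the levels were 367 CPM of Ahr (the other aged libraries reached 40.1), 674 of Ccl5 (482), 265 of Myo3b (61.2), 289 of Fgd6 (48.3), 289 of Ric8b (38.7), 141 of Cdadc1 (20.7), 152 of Erlin2 (30.4) and 212 of Pik3ca (61.5). In the other aged libraries, replicate 9 held 43.6 CPM of Pgam1 (13.9 at most elsewhere), 76.9 of Hmox1 (11.8) and 274 of Rttn (50.8). Replicate 7 held 23.2 CPM of Irf8 (7.54), and replicate 11 held 145 of Nap1l3 (30.5), 3.61 of Hist1h4j (1.13) and 1.19 of Slamf6 (0.189).

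In young replicate 3 the levels were 516 CPM of Unc119b (the other young libraries reached 111), 876 of Usp25 (363) and 717 of Tcf7 (257). Young replicate 6 held 115 CPM of Cd200r1 (1.72), 1.56 of Pgam1 (0) and a mitochondrial share of 10.1% (8.78%). Young replicate 5 held 336 CPM of Serpinb9 (101) and 1.03 of Fgd6 (0.372), and young replicate 4 held 1.95 CPM of Hmox1 (0.421).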

How the results depend on the processing

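The count of genes past the threshold was 0 with edgeR and 72 with DESeq2 (44 higher, 28 lower), 25 with no low-count filter, and 1 each with limma voom, with at least 10 counts in every library and in the fit of all 35 libraries; leaving out 1 library gave 0 to 1 (1 without aged replicate 12, Gm26924). The cause of these differences was not tested. Without a filter the 25 were 6 higher and 19 lower. The median of all genes moved from -0.08 to 0.15 with limma voom and to -0.30 with a covariate of genes detected, and the share above 0 from 47% to 54.6% and 39.9%. The aged minus young difference in total counts was 3.19 to 6.13 M without 1 library; 6.13 M, without aged replicate 8, was the 1 library measure past the threshold (exact permutation test, adjusted p = 0.0476). The Trav difference ran from -0.510 to 0.980 without 1 library and was -0.0487 by the inverse Simpson index. Among 58 named genes, 1341 of 1386 values kept direction and side of the threshold, 32 passed it and 13 changed sign; genes filtered out under a setting, such as Ric8b, Cdadc1 and Erlin2 without aged replicate 8, have no value there. The changes of sign were Cd200r1 (0.33 with limma voom; -0.56 to 4.85 without 1 library, 4.85 without young replicate 6, 0.01 without aged replicate 8, 0.05 without 10 and 0.02 without 11), H2-K1 (-0.00018 with DESeq2 size factors and with DESeq2, -0.0018 to 0.12 without 1 library, the lowest without young replicate 4) and Ccl5 (0.0048 without a filter, 0.0083 with at least 10 counts, 0.072 with a covariate of genes detected, -0.17 to 0.015 without 1 library, 0.015 without aged replicate 10 or 12). No paired analysis was possible because the groups share no replicate number. With 6 against 5 libraries the exact test cannot go below p = 0.00433, and intervals of most genes under 100 CPM are too wide to bound a change.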
